A study of Homo sapiens with 12 samples.

Results

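The genes described here are 10 components of bone morphogenetic protein (BMP) signalling, taken by name from a table of 57169 genes. They are the receptors BMPR2, BMPR1A and ACVR1, the intracellular mediators SMAD1 and SMAD5, their inhibitors SMAD6 and SMAD7, and the target genes ID1, ID2 and ID3. The set was chosen by the measured counts of BMPR2, which were lower in knock-down than in control in this same comparison, so the BMPR2 values are given as a description and carry no test. The others were added for their place in the pathway. All 10 names were found, each stood for a single locus, and all 10 passed the filter on low counts. RNA had been sequenced in 12 libraries of SK-ES1 xenografts (SK-ES1 is a cell line long established from Ewing sarcoma), 6 of them control (labelled wild-type) and 6 with knock-down of RING1B. RING1B is the product of RNF2 and the catalytic subunit of a Polycomb complex that attaches ubiquitin to histone H2A at silenced genes. Every library came from the same cell line, and the labels give no host strain, silencing construct, control construct, treatment, age of the host or time of collection. Nor do they say whether each library had its own animal, and p-values then cover only the spread among these libraries, which may be technical.

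BMPs are secreted ligands that bring together type II and type I receptor kinases at the cell surface. The type II receptor phosphorylates the type I receptor, which phosphorylates SMAD1, SMAD5 and SMAD9, and these join SMAD4 and enter the nucleus. ID1, ID2 and ID3, proteins that bind basic helix-loop-helix transcription factors and keep them from DNA, are among the best known direct targets. SMAD6 and SMAD7 are induced by the pathway and damp it. In bone and mesenchyme, the tissues around which Ewing sarcoma usually arises, BMP signalling drives skeletal differentiation.

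Total counts lay between 23859184 and 26678325 per library, where 3 counts correspond to 0.112 to 0.126 CPM (counts scaled to a common library total). RNF2 measured 47.6 ± 8.44 CPM in the control libraries and 17.7 ± 4.56 CPM after knock-down (SD, n = 6 each), with every knock-down library below every control. Of 16519 genes tested, edgeR called 49, or 0.297%, at an adjusted p below 0.05, 29 higher (0.176%) and 20 lower (0.121%) in knock-down, and the number lay between 16 and 79 when single libraries were left out. Control 6, knockdown 4 and knockdown 5 had the lowest mean correlation with the other libraries (0.968, 0.953 and 0.967, against at least 0.973). Markers of Ewing sarcoma cells summed to 2333 to 2509 CPM in control libraries and 2368 to 2711 CPM in knock-down. CCND1, EWSR1 and PRKCB made up most of it, with control means of 1086, 442 and 437 CPM. The sum thus mainly follows these genes and is not read as a measure of the share of tumour cells. CD99, a surface marker of this tumour, had no counts in any library. The handling of multiply aligned reads is not given, and whether the counting method produced this value was not tested. It is therefore not read as absence of CD99 from the cells.

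The members on which the results turn are BMPR2, SMAD6 and ID2, and their promoters are shown to make the regions concrete. Each window runs from 250 bases before to 50 bases after a RefSeq transcription start (GRCh38.p14, 5′ to 3′). The BMPR2 window is chr2:202376077-202376376 (plus strand), that of SMAD6 chr15:66701986-66702285 (plus strand) and that of ID2 chr2:8681806-8682105 (plus strand). Capitals mark letters that match GGCGCC, GTCTAGAC or CAGACA on either strand, short sequences known from SMAD binding.
BMPR2: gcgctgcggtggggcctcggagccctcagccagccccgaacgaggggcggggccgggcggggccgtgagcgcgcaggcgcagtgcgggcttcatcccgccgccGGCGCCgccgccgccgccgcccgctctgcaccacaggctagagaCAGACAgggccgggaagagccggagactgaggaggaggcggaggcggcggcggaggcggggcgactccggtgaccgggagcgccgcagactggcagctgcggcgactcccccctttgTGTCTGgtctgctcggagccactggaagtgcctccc
SMAD6: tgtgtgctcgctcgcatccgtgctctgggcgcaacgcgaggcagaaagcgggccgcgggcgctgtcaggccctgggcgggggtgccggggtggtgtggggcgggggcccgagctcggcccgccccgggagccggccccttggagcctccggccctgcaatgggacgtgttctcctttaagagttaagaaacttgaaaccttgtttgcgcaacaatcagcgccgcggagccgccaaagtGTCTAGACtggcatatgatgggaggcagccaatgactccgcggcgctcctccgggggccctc
ID2: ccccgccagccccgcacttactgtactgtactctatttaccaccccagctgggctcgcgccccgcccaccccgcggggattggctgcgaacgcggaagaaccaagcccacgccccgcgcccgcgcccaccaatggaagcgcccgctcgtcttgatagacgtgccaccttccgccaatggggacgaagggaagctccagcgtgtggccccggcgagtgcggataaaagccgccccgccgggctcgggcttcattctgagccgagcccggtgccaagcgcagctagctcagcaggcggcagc
The BMPR2 window held GGCGCC with its first base at position -147 and CAGACA at -103 and, on the other strand, at 14, counted from the start site as 0. The SMAD6 window held the palindrome GTCTAGAC at -12. None of the 3 motifs was in the ID2 window, which says only that these letters are not in these bases. Among 35116 RefSeq promoter windows of this length, GGCGCC was in 19.2%, CAGACA in 16.9% and GTCTAGAC in 0.202%. In the 18 windows of the 10 genes, GGCGCC was in at least 1 window of BMPR2, ACVR1, SMAD1 and SMAD5, CAGACA in BMPR2 and ACVR1 and GTCTAGAC in SMAD6 only. No motif matches overlapped in the printed windows. The BMPR2 window had a GC content of 76.7% and those of SMAD6 and ID2 of 68.0% and 69.0%, against a median of 58.7% over all windows.

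BMPR2, the type II receptor for BMPs and the gene most often mutated in heritable pulmonary arterial hypertension, was lower in knock-down. It spans bases 202376936 to 202567751 of chromosome 2 (hg38, plus strand), and all positions of genes below are on hg38. These are the bounds of the gene as counted, in GENCODE 29, and they differ from RefSeq: the printed BMPR2 window ends before this start, and the printed ID2 window lies inside the counted gene. Control libraries had 84.4 CPM at the lowest, 114 at the median and 143 at the highest, and knock-down libraries 54.3, 61.3 and 75.2 CPM. All 6 knock-down libraries lay below the lowest control, which was control 5, so the groups did not overlap. Means were 117 ± 20.7 CPM in control libraries and 63.2 ± 9.22 CPM in knock-down (SD, n = 6 each), a 1.85-fold difference. The log2 fold change was -0.88 (SE 0.133), and 54.2% of the control level remained, with an approximate 95% interval from 45.2% to 64.9%. Because BMPR2 was chosen by this fall, the difference may be overstated and the interval too narrow, and neither is a test. BMPR2 was the only member that edgeR called, beside a background of 0.121% of genes called lower, and the only one whose groups did not overlap, beside a background of 1.22%. Since this contrast led to the set, nothing is read from either count. When counts of libraries with the same title number were summed, leaving 4 against 4, the log2 fold change was -0.95 and BMPR2 was not among the called genes. In bulk tissue, fewer cells of a type and less RNA per cell cannot be told apart.

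BMPR2 is also a gene of endothelium, so markers of this cell type were read beside it. The 15 endothelial markers, none of them at 0 in all libraries, summed to 117 to 215 CPM in control libraries and 128 to 174 CPM in knock-down. Most of this sum came from ENG, a co-receptor of the same pathway, and EGFL7. The other markers differed in level and direction. PECAM1 and VWF were at means of 0.152 and 0.253 CPM in control libraries and 0.235 and 0.0475 CPM in knock-down. CLDN5 and EMCN were at means of 8.32 and 8.53 CPM in control libraries and 10.9 and 7.74 CPM in knock-down. Of the 9 endothelial markers tested, 6 had positive log2 fold changes, with a median of 0.04 and none called. A fit took the mean log2 CPM of 7 endothelial markers as a covariate, leaving out ENG and ACVRL1, which are also genes of the pathway. In it the log2 fold change of BMPR2 was -0.88. The covariate thus lacks ENG, which carried much of the sum above. Vessels of a xenograft may come from the host and these counts are of human genes, so the markers need not measure endothelium. The part of endothelium in the BMPR2 values is thus not settled by this fit. Fibroblast and pericyte markers summed to 584 to 1605 CPM in control libraries and 434 to 1634 CPM in knock-down, ranges that overlapped, and their part in the BMPR2 values was not tested.

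Neither type I receptor was called. BMPR1A, on chromosome 10 from 86756601 to 86932838, was at 19.97, 21.4 and 30.2 CPM in control (lowest, median, highest) and at 19.2, 26.9 and 33.0 CPM in knock-down. The knock-down range held the whole control range, with a log2 fold change of 0.19 (SE 0.159, edgeR adjusted p = 0.644). ACVR1, the receptor mutated in fibrodysplasia ossificans progressiva, lies on chromosome 2 from 157736444 to 157875862. Its control libraries were at 15.2, 18.0 and 19.2 CPM and its knock-down libraries at 13.0, 15.2 and 19.6 CPM (lowest, median, highest). These groups overlapped, with a log2 fold change of -0.14 (SE 0.121, edgeR adjusted p = 0.656). The approximate 95% intervals were -0.12 to 0.50 for BMPR1A and -0.38 to 0.09 for ACVR1. Per kilobase of exons, BMPR2 stood at 4.88 ± 0.595 times the level of BMPR1A in control and 2.44 ± 0.763 times in knock-down (SD, n = 6 each), with control ratios from 4.06 to 5.68 and knock-down ratios from 1.59 to 3.6. The ratio of BMPR2 to ACVR1 was 2.24 ± 0.425 in control and 1.35 ± 0.257 in knock-down. Library scaling cancels in these ratios, which rest on the BMPR2 values and are likewise a description.

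**Figure D1:**
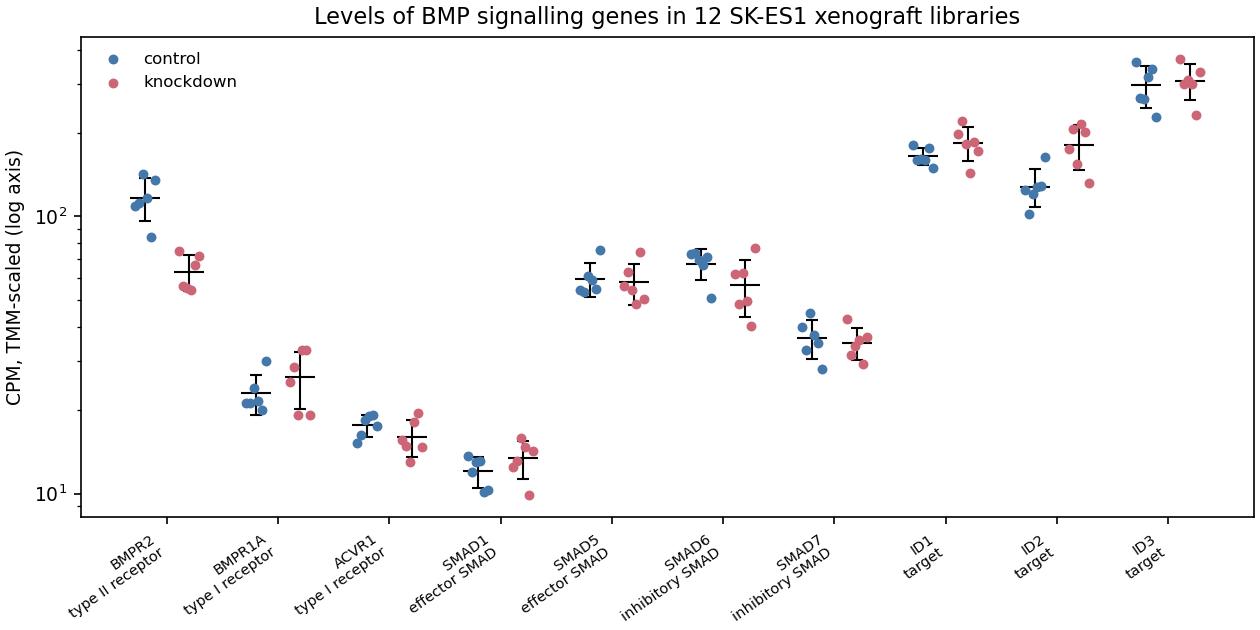
Level of each gene in CPM (log axis) in every library, control in blue and knock-down in red, with a horizontal bar for the mean and whiskers for the SD of 6 libraries. BMPR2 is the gene whose groups are apart, at 84.4 to 143 CPM in control libraries and 54.3 to 75.2 CPM in knock-down, and all other pairs of groups overlap.

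The receptor-regulated SMADs, which carry the signal to the nucleus, showed no called difference. SMAD1, on chromosome 4 from 145481194 to 145558079, was at 10.1, 12.5 and 13.7 CPM in control libraries and 9.86, 13.7 and 15.9 CPM in knock-down (lowest, median, highest). Its log2 fold change was 0.15 (SE 0.136), not past the threshold (edgeR adjusted p = 0.669), and 3 knock-down libraries lay above the highest control. SMAD5, on chromosome 5 from 136132845 to 136188747, was at 53.3, 56.8 and 75.9 CPM in control libraries and 48.3, 55.0 and 74.6 CPM in knock-down. Its groups covered nearly the same range, with a log2 fold change of -0.05 (SE 0.124, edgeR adjusted p = 0.91), whose sign turned without control 6 (0.03) or without knockdown 4 (0.00028). SMAD5 was highest in control 6 and knockdown 5, at 75.9 and 74.6 CPM, both among the libraries least like the rest over the whole table, and in these SMAD1 was at 10.3 and 9.86 CPM, among its lowest values.

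The inhibitory SMADs were likewise not called. SMAD6, on chromosome 15 from 66702228 to 66782848, competes for the active SMAD1 and SMAD5 complex and is the inhibitor that acts mainly on BMP signals. It was at 50.8, 70.4 and 73.8 CPM in control libraries and 40.1, 55.8 and 76.9 CPM in knock-down (lowest, median, highest). In 5 of the 6 knock-down libraries it was below the control median, and the groups overlapped through control 6, the lowest control, and knockdown 6, the highest of all libraries. The log2 fold change of -0.26 was not called (SE 0.148, approximate 95% interval -0.55 to 0.03, edgeR adjusted p = 0.491). SMAD7, on chromosome 18 from 48919853 to 48952052, blocks both BMP and TGF-beta receptors. It was at 28.1, 36.1 and 45.0 CPM in control libraries and 29.3, 34.9 and 42.6 CPM in knock-down, and every knock-down library lay within the control range. It was not called, at a log2 fold change of -0.05 (SE 0.124, edgeR adjusted p = 0.896) that turned to 0.01 without control 3.

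Of the target genes ID2 differed most. ID2, on chromosome 2 from 8678845 to 8684453, is also known as a target that EWSR1-FLI1, the fusion factor of Ewing sarcoma, activates. Control libraries were at 102, 126 and 164 CPM and knock-down libraries at 132, 188 and 216 CPM (lowest, median, highest). All 6 knock-down libraries were above the control median and 4 were above the highest control, control 6. The 8 skeletal muscle markers summed to 13.2, 20.7 and 39.2 CPM in control and 8.08, 12.8 and 24.8 CPM in knock-down (lowest, median, highest). The 3 of them that were tested had negative log2 fold changes, with a median of -0.97 and none called, and the part of this difference in the ID2 values was not tested. Means were 128 ± 20.1 CPM in control libraries and 181 ± 33.1 CPM in knock-down (SD, n = 6 each), with a log2 fold change of 0.50 (SE 0.136, approximate 95% interval 0.23 to 0.76). This did not pass the test over all genes by edgeR (adjusted p = 0.162) or limma-voom (0.165), and passed by DESeq2 (adjusted p = 0.0413), which called 351 genes (2.12%). ID2-AS1, an antisense gene that shares 38 exonic bases with ID2, had 51 to 122 counts per library, 2.52% of those of ID2, and without a stated strand setting reads there cannot be told apart.

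ID1 and ID3 were not called either. ID1, on chromosome 20 from 31605283 to 31606515, was at 150.1, 160.5 and 181 CPM in control libraries and 144, 184 and 221 CPM in knock-down (lowest, median, highest). Knock-down libraries lay above the highest control in 4 cases and below the lowest in 1, knockdown 4, with a log2 difference of 0.16 (SE 0.103, edgeR adjusted p = 0.539). ID3, on chromosome 1 from 23557918 to 23559794, was at 229, 292 and 361 CPM in control libraries and 233, 306 and 371 CPM in knock-down. These ranges were almost the same, with a log2 fold change of 0.05 (SE 0.130, edgeR adjusted p = 0.902) that was negative without control 6 (-0.01) or without knockdown 1 (-0.02). The approximate 95% intervals were -0.04 to 0.36 for ID1 and -0.20 to 0.31 for ID3.

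**Figure D2:**
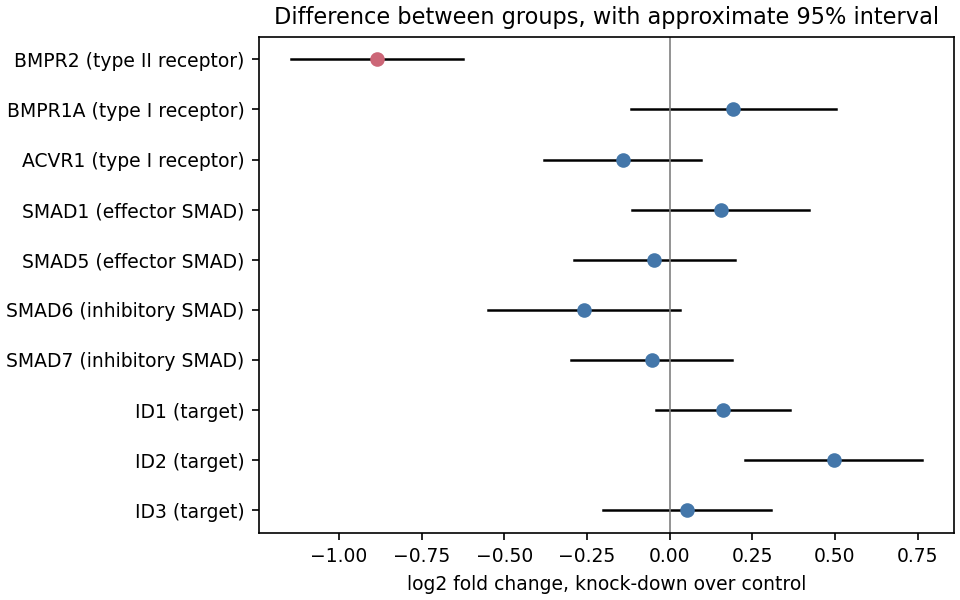
Log2 fold change of knock-down over control for each gene (point) with its approximate 95% interval (line), BMPR2 in red. BMPR2 is at -0.88, ID2 at 0.50 and the other genes between -0.26 and 0.19, with intervals that include 0. The interval of BMPR2 is a description and no test, since its fall led to the set.

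Library titles carry a letter, D or E, whose meaning the labels do not give and which is unevenly spread, with 2 control and 4 knock-down libraries under D and 4 and 2 under E. The log2 fold change of BMPR2 was -0.85 within D and -0.91 within E, and that of ID2 was 0.52 and 0.43. SMAD6 was at -0.41 and -0.07, ID1 at 0.19 and -0.04, BMPR1A at 0.29 and 0.12 and ACVR1 at -0.14 and -0.13. SMAD1 (-0.08 and 0.35), SMAD5 (0.11 and -0.31), SMAD7 (-0.18 and 0.04) and ID3 (-0.17 and 0.19) differed in sign between the letters, each with a standard error near 0.2.

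Set in order by level per length, the targets stood far above the components that control them. In control, ID3 was at 165 ± 28.3, ID1 at 134 ± 9.42 and ID2 at 58.1 ± 9.09 CPM per kilobase of exons (SD, n = 6). BMPR2 followed at 9.81 ± 1.74, then SMAD6 at 7.89 ± 1.004, SMAD7 at 7.22 ± 1.15, SMAD5 at 6.60 ± 0.942, ACVR1 at 4.42 ± 0.405, BMPR1A at 2.02 ± 0.329 and SMAD1 at 1.99 ± 0.250. The ranges over control libraries overlapped between ID3 and ID1, between each pair of neighbours from BMPR2 to SMAD5, and between BMPR1A and SMAD1. The steps from ID1 to ID2, from ID2 to BMPR2, from SMAD5 to ACVR1 and from ACVR1 to BMPR1A were wider than these ranges. In knock-down BMPR2 was at 5.31 ± 0.775 CPM per kilobase, below the means of SMAD7 (6.96 ± 0.918), SMAD6 (6.60 ± 1.54) and SMAD5 (6.39 ± 1.07). The length is that of all annotated exons, so a gene that uses few of them is placed too low.

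**Figure D3:**
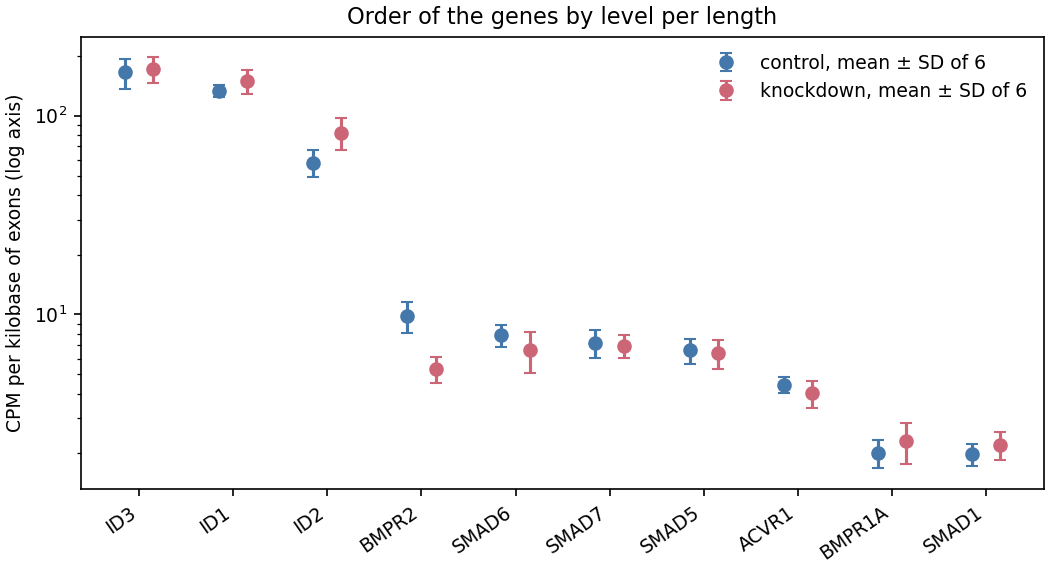
Mean level of each gene in CPM per kilobase of exons (log axis) with the SD of 6 libraries, control in blue and knock-down in red, in the order of the control means. The 3 ID genes lie above 50, all others below 12. BMPR2 is at 9.81 in control and 5.31 in knock-down, and the means of SMAD6 and SMAD7 exchange their order.

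How libraries of the same group differ was not used to choose these genes. Deviations of log2 CPM from the group mean were therefore correlated over the 12 libraries for 10 pairs of the target and feedback genes ID1, ID2, ID3, SMAD6 and SMAD7 and for BMPR2 with each of them, with permutation within groups and adjustment over 15 pairs. ID2 and SMAD6 moved in opposite directions, with Pearson r = -0.88 (permutation p = 0.00147, adjusted 0.0221) and Spearman rho = -0.87 (permutation p = 0.00251, adjusted 0.0377). The relation was the same in each group, with r = -0.88 in control and -0.89 in knock-down, and r was -0.69 without knockdown 6 and control 6, the libraries farthest from the median of ID2, and -0.91 when libraries of the same title number were averaged. Control 6 had the highest ID2 of the controls (164 CPM) and their lowest SMAD6 (50.8 CPM), and knockdown 6 had the lowest ID2 of the knock-down libraries (132 CPM) and their highest SMAD6 (76.9 CPM).

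The pair is not singular in these libraries. Of 12409 coding genes with a mean of at least 1 CPM, 595 had a correlation with ID2 below -0.8, and SMAD6 was the 117th from the most negative. The share of counts from mitochondrial genes moved with both, with r = 0.70 for ID2 and -0.76 for SMAD6 over 12 libraries, and was 14.4% in control 6 and 4.65% to 7.08% in the other controls. The summed skeletal muscle markers, mostly TTN and ACTA1, had r = -0.73 with ID2 and 0.55 with SMAD6. The part of either measure in the relation was not tested.

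No other pair passed the adjusted test. ID3 and SMAD6 had r = 0.72 (permutation p = 0.00775, adjusted 0.0581) and rho = 0.64 (permutation p = 0.0233, adjusted 0.174), ID3 and SMAD7 r = 0.65 (permutation p = 0.0325, adjusted 0.122) and rho = 0.56 (permutation p = 0.0816, adjusted 0.275), and SMAD6 and SMAD7 r = 0.64 (permutation p = 0.0251, adjusted 0.122) and rho = 0.57 (permutation p = 0.059, adjusted 0.275). Each fell to between 0.25 and 0.31 without control 6 and knockdown 5, so these relations rest on those libraries. With the summed endothelial markers, mostly ENG and EGFL7, r was 0.86 for ID3, 0.70 for SMAD7 and 0.63 for SMAD6. It was 0.16 for ID1 and -0.39 for ID2. With the mitochondrial share r was -0.75 for ID3 and -0.66 for SMAD7, and the part of either measure in these relations was not tested. ID1 and ID2, often induced together, had r = -0.08 (permutation p = 0.837, adjusted 0.91), but 0.86 over 9 libraries without control 6, knockdown 4 and knockdown 5, a choice made after the values were seen. BMPR2 had |r| of at most 0.30 with the 5 target and feedback genes, with adjusted permutation p from 0.702 to 0.983. These values rest on few libraries: r with SMAD7 was 0.56 without control 6 and 0.76 over the same 9 libraries, r with ID3 was -0.54 without knockdown 1, and r with ID1 was -0.52 without knockdown 4.

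Within groups BMPR2 varied with RNF2, a relation looked at after the values were seen. Over the 12 deviations from the group means, r was 0.69 (permutation p = 0.0165) and rho 0.73 (permutation p = 0.0138), for this single pair without adjustment. It was 0.83 within control and 0.64 within knock-down, 0.61 without knockdown 3 and knockdown 4, the libraries farthest from the median of RNF2, and 0.71 when title numbers were averaged. By the same measure RNF2 ranked 55th of 12409 coding genes. The nearest were REST, a repressor of neuronal genes (r = 0.86), the helicase DDX55 (0.84), the transcription factor FOXO1 (0.84), the RNA-binding protein ZFR (0.83) and ACVR2B, another type II receptor for activins and BMPs (0.83). Between the groups none of these 5 was called, their log2 fold changes lying within -0.18 and 0.06 (lowest edgeR adjusted p = 0.6). Without centring, where the difference between groups dominates, the nearest were the stress granule protein G3BP1 (0.95), RNF2 (0.94), the kinase MAPK6 (0.92), the RAB11 effector RAB11FIP2 (0.92) and the adaptor chaperone AAGAB (0.91). All were lower in knock-down, with log2 fold changes of -0.60, -1.425, -0.44, -0.56 and -0.88 in this order. These uncentred r values thus mostly repeat the fall by which BMPR2 was chosen, and are a description.

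**Figure D4:**
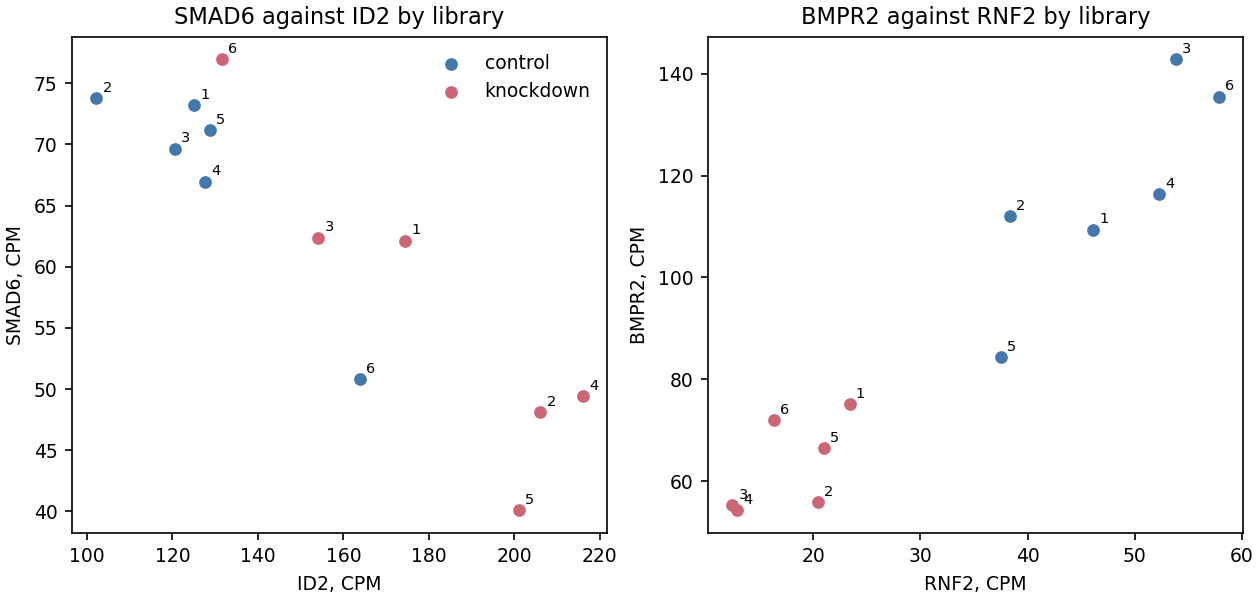
CPM of SMAD6 against ID2 (left) and of BMPR2 against RNF2 (right), with a point for each library numbered by replicate, control in blue and knock-down in red. SMAD6 is low where ID2 is high in both groups (r = -0.88), and BMPR2 and RNF2 vary together within each group (r = 0.83 in control, 0.64 in knock-down).

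The rest of the pathway was read from 9 lists of 122 genes by role, of which 95 passed the filter on low counts. None was called by edgeR or limma-voom, 13 of the 95 had an unadjusted p below 0.05, beside 12.7% of all genes tested, and DESeq2 called 4, beside 2.12% of all genes tested, namely GDF11, SNAI2 and MSX2 higher and BMP5 lower. Positive log2 fold changes numbered 46 of 95 with a median of -0.01, against 8657 of 16519 and a median of 0.01 over all genes. Of the 10 genes, 5 were positive, with a median of 0.003.

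Among BMP ligands, 7 of 18 were tested and 4 were positive. GDF6, a ligand of joint formation, was the most abundant per length, at 104 ± 7.69 CPM in control libraries and 105 ± 25.99 CPM in knock-down (SD, n = 6). BMP5 was at 2.67, 4.04 and 4.98 CPM in control libraries and 1.15, 2.13 and 2.92 CPM in knock-down (lowest, median, highest), with groups that overlapped through control 3 (log2 fold change -0.90, SE 0.239, edgeR adjusted p = 0.147, DESeq2 adjusted p = 0.0156). GDF9, named by the same rule, had means of 1.37 and 1.77 CPM in control libraries and knock-down and a log2 fold change of 0.36, with groups that just failed to overlap (edgeR adjusted p = 0.429). BMP4 and BMP7, ligands often made by mesenchyme and epithelium, averaged at most 0.124 CPM in either group, near the level of 3 counts.

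Among the other ligands of the TGF-beta family, 6 of 11 tested were positive. GDF11, a ligand that signals through activin receptors and SMAD2 and SMAD3, was at 53.5, 60.1 and 64.0 CPM in control libraries and 72.3, 76.6 and 83.0 CPM in knock-down (lowest, median, highest). The groups did not overlap, and the log2 fold change of 0.38 (SE 0.085) fell short of the threshold by edgeR (adjusted p = 0.0844) and passed by DESeq2 (0.00118). GDF9 and GDF11 were the only 2 of the 95 pathway genes tested whose groups did not overlap, beside 1.22% of all genes tested. TGFB1 was the most abundant per length, with a log2 fold change of -0.05. INHBB, at means of 0.518 and 1.13 CPM, had a log2 fold change of 1.11 that was 0.11 without knockdown 4.

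Antagonists and modulators outside the cell were positive in 8 of 14 tested, with a median of 0.13. FSTL1, the most abundant, was at 244 ± 21.2 CPM in control libraries and 201 ± 19.1 CPM in knock-down (SD, n = 6). Its log2 fold change was -0.28 (edgeR adjusted p = 0.231), and that of NBL1, another antagonist, was 0.40 (edgeR adjusted p = 0.236). Noggin and chordin, the classical BMP antagonists, were low, with NOG at 1.33 and 0.841 CPM and CHRD at 2.38 and 2.58 CPM in control libraries and knock-down.

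Of 7 further receptors of both types that were tested, 2 were positive, with a median of -0.17. TGFBR1, the TGF-beta type I receptor, had a log2 fold change of -0.36 (edgeR adjusted p = 0.284) and BMPR1B one of -0.49 at 2.29 and 1.63 CPM (edgeR adjusted p = 0.587), which was -0.95 without knockdown 4 (edgeR adjusted p = 0.179). ACVR1B, an activin receptor, was the most abundant per length (-0.02). The other type II receptors that BMPs can use, ACVR2A and ACVR2B, were at 20.7 ± 1.98 and 48.2 ± 9.38 CPM in control libraries and 21.7 ± 4.85 and 42.6 ± 5.14 CPM in knock-down (SD, n = 6), and their log2 fold changes, 0.07 and -0.18, were not called (edgeR adjusted p = 0.878 and 0.6). These 2 genes were chosen for description after their values were seen.

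Co-receptors were positive in 3 of 6 tested, with ENG at -0.26 and NEO1, a receptor of repulsive guidance molecules, at 0.38 (edgeR adjusted p = 0.587 and 0.66). The value of NEO1 was 0.04 without knockdown 4, and that of ENG was -0.13 without control 1. Of the remaining SMADs SMAD2 and SMAD3, which serve TGF-beta and activin, were both at 0.15 on the log2 scale without passing the threshold (edgeR adjusted p = 0.582 and 0.801), and the value of SMAD3 lay between 0.03 (without control 1) and 0.30 (without control 6). SMAD9, the third SMAD of the BMP branch, was at 51.8 ± 8.71 CPM in control libraries and 49.4 ± 4.63 CPM in knock-down (SD, n = 6). Among 22 regulators and nuclear partners of SMADs 11 were positive, with the ubiquitin ligase WWP1 at -0.24 and the phosphatase CTDSPL at -0.23 (edgeR adjusted p = 0.339 and 0.359). FKBP1A, which binds resting type I receptors, was the most abundant of them per length (0.07). Kinases of the SMAD-independent branch and their partner proteins were positive in 2 of 8. The kinase MAPK14 was at -0.22 and TAB2, a partner protein and the most abundant per length, at -0.12 (edgeR adjusted p = 0.388 and 0.646).

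Of 16 further genes that BMP can induce 8 had positive values, the median was 0.01 and 5 had an unadjusted p below 0.05 (beside the 12.7% of all genes), namely SNAI2, MSX2, MSX1 and ID4 with positive and RUNX2 with a negative value. SNAI2, a repressor of epithelial genes, was at 15.1 ± 2.82 CPM in control libraries and 25.8 ± 6.87 CPM in knock-down, and the homeobox gene MSX2 at 9.08 ± 1.94 and 15.5 ± 3.78 CPM (SD, n = 6 each). Their log2 fold changes were 0.77 each (edgeR adjusted p = 0.0951 and 0.0999). The adjusted p was 0.0426 and 0.0485 without knockdown 4 and 0.242 for both without control 2, and in a fit with the title letter the log2 fold changes were 0.59 each (edgeR adjusted p = 0.213 and 0.163). RUNX2, the master regulator of osteoblasts, was at 11.1, 13.99 and 15.7 CPM in control and 7.72, 9.44 and 13.0 CPM in knock-down (lowest, median, highest). In 5 of 6 knock-down libraries it lay below the lowest control, with a log2 fold change of -0.46 (SE 0.152, edgeR adjusted p = 0.224). MSX1, a homeobox gene like MSX2, had a log2 fold change of 0.59 (SE 0.236, edgeR adjusted p = 0.319). RUNX2 and MSX1 were named after their values were seen. ID4, the fourth gene of the ID family and the most abundant of this list per length, was at 71.3, 87.8 and 107 CPM in control libraries and 75.5, 123 and 128 CPM in knock-down (lowest, median, highest), with a log2 fold change of 0.36 (SE 0.135, edgeR adjusted p = 0.296). All 4 ID genes thus had positive log2 fold changes, as did 8657 of 16519 genes tested, and none of the 4 was called by edgeR. The value of ID3 was negative without control 6 or knockdown 1 and within letter D (-0.17). That of ID1 was negative within letter E (-0.04).

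**Figure D5:**
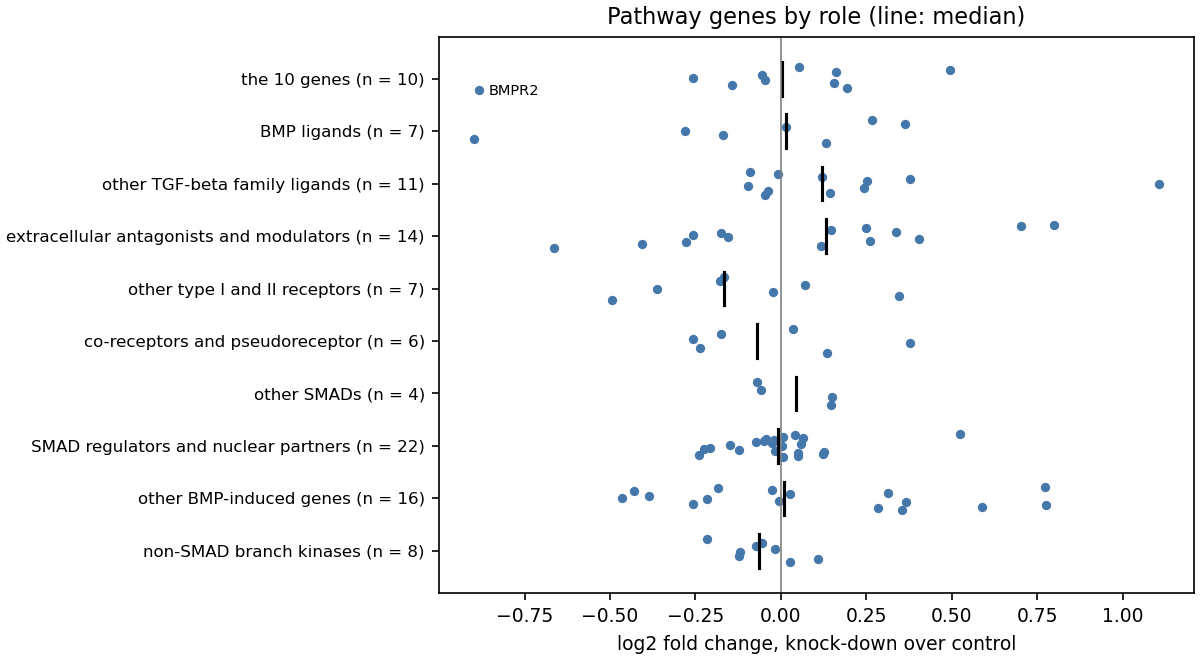
Log2 fold change of knock-down over control for each tested gene (points) of the 10 genes and of 9 lists of pathway genes by role, with the number tested and a black line for the median. Medians lie between -0.17 and 0.13, and BMPR2 and BMP5 are the lowest points.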

How the data were processed

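Total RNA came from an RNeasy extraction and was sequenced as TruSeq stranded mRNA libraries, per the labels' protocols. The deposited values are raw read counts per gene, made by the authors with STAR 2.6.0a, featureCounts and hg38, per the submitters' processing notes, which also name FastQC, R 3.6.0 and limma 3.40.2. Not given in the sources used here are the strand setting, the handling of multiply aligned reads and whether host reads, which could add to human genes, were removed. The other column used is the deposited length of all exons of a gene. Names and exons of all 57169 genes equalled those of GENCODE 29. Chi-square per degree of freedom was at least 12.0 between libraries of a group, so none was the same library sequenced again. The lowest value was between control 1 and control 2, which share title number 60. This measure cannot tell whether libraries shared an animal or tumour.

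In R 4.3.3, edgeR 4.0.16 filtered genes with filterByExpr (16519 left), scaled by TMM (factors 0.921 to 1.04) and applied the robust quasi-likelihood F test, knock-down against control, over all genes, with Benjamini-Hochberg adjustment and a threshold of 0.05. It was tested on simulated data. Standard errors come from the F statistic, and approximate 95% intervals are normal. CPM values are scaled by TMM, and a prior count of 2 was added for log2 CPM. Correlations used 100000 permutations. DESeq2 1.42.0 and limma-voom 3.58.1 were alternatives. Replicate numbers follow accession order. Promoters come from RefSeq (GRCh38.p14), where all 10 genes matched.

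The 10 genes and all lists were chosen with earlier results of these data known. Named beside them are, per list, the 2 genes with the smallest p where none was called and the most abundant per length, and the 5 genes most like BMPR2.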

Additional observations from a re-analysis of the deposited data

Results flagged for a closer look

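Each gene described was read for a library that stands far from the other 5 of its group (Dixon's criterion), in 58 groups of 29 genes. Chance flags about 1 in 20 groups, and 6 were found. SMAD5 was at 75.9 CPM in control 6, the next control being at 60.8 CPM, and SMAD6 at 50.8 CPM in the same library, the next being at 66.9 CPM. GDF9 was at 1.24 CPM in control 4, the next control being at 1.36 CPM. In knockdown 4, INHBB was at 3.96 CPM, the next knock-down library being at 1.23 CPM, BMPR1B at 3.83 CPM (next 1.65 CPM) and NEO1 at 114 CPM (next 60.1 CPM). Control 6 and knockdown 4 are among the 3 libraries least correlated with the others. BMPR2 had no such library in either group.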

How the results depend on the processing

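No paired analysis was possible because the groups share no title number. BMPR2 kept its sign in all 24 alternatives, with log2 fold changes from -0.98 to -0.81, and ID2 kept its sign from 0.43 to 0.58. All alternatives reuse these libraries, and BMPR2 was chosen by its fall in them, so its kept sign and its calls are a description. The number of genes called, 49, was 351 by DESeq2 and 56 by limma-voom. Limma-voom with the title number as a random effect called 91. The correlation it estimated within title numbers was negative (-0.125), which can lower standard errors, so this rise is not read as stronger evidence. By edgeR the number was 7 with counts summed by title number, 28 with the title letter and 90 with the endothelial markers as a covariate. It was 108 without the 3 libraries least correlated with the rest, a choice made after seeing the data. It lay between 16 and 79 when single libraries were left out, at 19, 20, 16, 28 and 77 without control 1, 2, 3, 4 and 6 and at 16, 31 and 79 without knockdown 1, 3 and 4. Of the 10 genes, 2 were called by DESeq2 (BMPR2 and ID2) and 0 with counts summed by title number (4 sums against 4; BMPR2 at an edgeR adjusted p of 0.0564), and 1 in each leave-out. Of the other pathway genes 4 were called by DESeq2, beside 351 of all genes, and 1 without a low-count filter (SNAI2). When single libraries were left out 0 to 2 were called (SNAI2 and MSX2 without knockdown 4, beside 79 of all genes). Among leave-outs the sign turned for SMAD5 (range -0.13 to 0.035), SMAD7 (-0.13 to 0.0073) and ID3 (-0.016 to 0.12). SMAD5 was at 0.00028 without knockdown 4. No scaling moved the median of all genes by over 0.1. At this depth 3 counts correspond to 0.112 to 0.126 CPM, so most BMP ligands could not be compared.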

Other observations

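CHRDL1, a chordin-like BMP antagonist below the filter on low counts and chosen after its values were seen, was at 0 to 0.209 CPM in control. In knock-down it was at 11 CPM in knockdown 2, 1.77 CPM in knockdown 6 and 0.128 to 0.585 CPM in the other 4 libraries. The high mean thus rests mainly on knockdown 2.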
